A study of Homo sapiens with 6 samples.

Results

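The accessible regions of human chromosome 13 in the myeloma line KMS-11 were taken as all ATAC-seq peaks listed on chromosome 13 (hg38) in 6 libraries, with overlapping peaks of a library merged into 1 region. After a merge across the 6 lists that kept peaks with −log10 q from 2 upward, chromosome 13 held 2968 of 216003 regions. The individual libraries listed 1943, 2151 and 2083 regions on chromosome 13 after ATF4 knockdown, and 2271, 2652 and 2092 in controls. ATAC-seq marks open chromatin by letting the Tn5 transposase insert sequencing adapters into accessible DNA. The 3 knockdown libraries carry the treatment label LentiV2_ATF4g3, read here as a lentiviral vector with 1 guide against ATF4, a transcription factor of the integrated stress response. The 3 control libraries carry the treatment label LentiV2, the vector alone, and all 6 bear the genotype label WT. How the guide acts is not given in the sources used here, no second guide was compared, and KMS-11 is 1 line from 1 tumour. The titles number the libraries as biological replicates, but no label says that they came from separate cultures, so SDs and p-values measure the spread between these libraries, which may be technical.

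Human chromosome 13 is acrocentric: its short arm holds ribosomal repeats, and its genes lie on a long arm with wide stretches that are poor in genes. Loss of all or part of the long arm is among the most frequent copy changes in multiple myeloma, and band 13q14 with RB1, DLEU2 and the microRNAs miR-15a and miR-16-1 is the stretch most often discussed. Fewer copies of a chromosome leave less DNA for the transposase, and a peak list records that only through the tags it counts at each summit. No copy number was measured in these samples, so copies per cell and accessibility per copy cannot be told apart in any value below.

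Promoters of 4 genes are shown because the results turn on their regions. NUFIP1 and TPT1 lie near 45 Mb, where mostly low gene ends give way to a mixture of low and high ones, and SETDB2 and DNAJC3 lie in the strongest regions of the chromosome. Each promoter runs from 250 bases before to 50 bases after the annotated start (RefSeq, GRCh38.p14, the assembly of hg38), is written 5′ to 3′ on the gene's strand, and lies wholly inside a region listed in all 6 libraries. NUFIP1 is at chr13:44989422-44989721 on the minus strand, TPT1 at chr13:45341134-45341433 on the minus strand, SETDB2 at chr13:49444024-49444323 on the plus strand and DNAJC3 at chr13:95676889-95677188 on the plus strand. Capitals mark the CCAAT box (CCAAT) and the GC box (GGGCGG) on either strand, overlaps included.
NUFIP1 promoter: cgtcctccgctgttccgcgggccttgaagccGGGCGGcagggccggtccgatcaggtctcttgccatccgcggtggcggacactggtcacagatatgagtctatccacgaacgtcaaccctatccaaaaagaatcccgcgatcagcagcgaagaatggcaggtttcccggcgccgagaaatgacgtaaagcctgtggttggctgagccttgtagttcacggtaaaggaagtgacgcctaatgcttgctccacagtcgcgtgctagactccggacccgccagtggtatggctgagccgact
TPT1 promoter: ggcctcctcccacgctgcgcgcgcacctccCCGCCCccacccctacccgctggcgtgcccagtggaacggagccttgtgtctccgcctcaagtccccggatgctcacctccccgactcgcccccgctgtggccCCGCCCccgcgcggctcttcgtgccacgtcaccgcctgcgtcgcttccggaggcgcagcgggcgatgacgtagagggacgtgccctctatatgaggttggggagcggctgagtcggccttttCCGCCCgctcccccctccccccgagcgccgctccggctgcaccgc
SETDB2 promoter: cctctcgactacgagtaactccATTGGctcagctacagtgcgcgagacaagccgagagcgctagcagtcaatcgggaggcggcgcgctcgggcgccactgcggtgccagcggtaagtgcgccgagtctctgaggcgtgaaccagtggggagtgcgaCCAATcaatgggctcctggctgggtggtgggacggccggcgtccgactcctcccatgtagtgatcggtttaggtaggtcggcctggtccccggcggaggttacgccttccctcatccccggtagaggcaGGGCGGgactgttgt
DNAJC3 promoter: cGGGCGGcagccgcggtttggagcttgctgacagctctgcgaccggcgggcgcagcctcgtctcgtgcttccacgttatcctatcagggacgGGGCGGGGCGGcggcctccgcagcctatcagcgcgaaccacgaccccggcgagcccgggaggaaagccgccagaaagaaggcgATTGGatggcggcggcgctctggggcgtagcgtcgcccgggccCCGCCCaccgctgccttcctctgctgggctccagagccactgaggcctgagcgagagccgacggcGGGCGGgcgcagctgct
The GC box matched 1 time in NUFIP1, 3 times in TPT1, 1 time in SETDB2 and 5 times in DNAJC3, and the CCAAT box matched 2 times in SETDB2 and 1 time in DNAJC3. Among all 27195 promoters of this length, 44.7% held a GC box and 35.7% a CCAAT box. Among the 713 on chromosome 13 the shares were 33.9% and 31.7%. The cAMP response element (TGACGTCA, in 1.98% of all promoters), the ATF4 composite site (TGATGNAA, 3.67%) and the AP-1 site (TGANTCA, 7.73%) matched none of these 4 windows on either strand, which says only that these letters are not in them. Of the 299 protein-coding promoters of chromosome 13 with a sequence, 190 (63.5%) touched a region listed in all 6 libraries.

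The 2 mature microRNAs of the 13q14 cluster are shown because their loss is what this band is best known for in B-cell cancers, where both repress BCL2. They share the seed AGCAGCA (bases 2 to 8, in capitals) and lie on the minus strand at chr13:50049167-50049188 and chr13:50049027-50049048 (RefSeq, GRCh38.p14).
hsa-miR-15a-5p: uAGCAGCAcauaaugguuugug
hsa-miR-16-5p: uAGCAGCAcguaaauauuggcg
No region lay within 1 kb of either end of their hairpin genes. Their host transcript DLEU2 had a region at its end in every library, with pileups of 164, 147 and 179 tags in knockdown libraries and 252, 210 and 242 in controls.

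Each list held 220250 to 238246 summits on chromosomes 1 to 22 and X. The caller's library-wide background rate, the measure of depth used here, was 2.51, 2.15 and 2.51 tags in knockdown libraries and 3.19, 2.79 and 3.52 in controls, so depth and group move together. Gene ends of 9 of 9 plasma cell markers, among them SDC1, IRF4, PRDM1 and XBP1, had a strong region in all 6 libraries. Of 6 myeloid markers none had one, and CD14, LYZ, CSF1R and SPI1 had no region. A strong region in all 6 libraries stood at 4 of 6 T cell markers, with none at CD3G, and at 5 of 6 epithelial and stromal markers, so an accessible gene end did not separate these cell types. The region at ATF4 itself had 189, 197 and 278 tags in knockdown libraries and 399, 417 and 409 in controls, which says nothing about the guide's effect, since a peak at a gene end does not measure an edit or the protein.

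Chromosome 13 had the lowest density of listed regions of the 22 autosomes in each of the 6 libraries. Density was counted per Mb of occupied sequence, the 100 kb windows that hold at least 1 summit, which came to 88.8 Mb on chromosome 13 and 2559 Mb on the other autosomes. A region was called weak when the caller's −log10 q at its best summit was below 2 and strong when it was 10 or more. At these thresholds the nearest chromosome 13 regions had −log10 q of 1.9992 and 2.0018, and of 9.999 and 10.01. Weak regions stood at 4.82, 5.38 and 4.27 per Mb on chromosome 13 in knockdown libraries and 2.59, 4.67 and 2.00 in controls. The other autosomes held 23.3, 23.4 and 19.1 per Mb in knockdown libraries and 11.4, 14.5 and 8.63 in controls. Every chromosome 13 value was below every value of the other autosomes. The mean ratio was 0.238, or −2.07 ± 0.22 on the log2 scale (SD, n = 6, exact sign-flip permutation test over libraries, two-sided, p = 0.03125, the smallest 6 libraries can give, and 0.0349 after Benjamini-Hochberg adjustment over 19 measures). This test asks only whether 6 libraries of 1 line share a direction, and cannot set chromosome 13 apart from other single autosomes. Chromosome 11 was also below the other autosomes in each library. It had 7.46, 8.46 and 6.66 weak regions per Mb in knockdown libraries and 3.87, 5.23 and 3.03 in controls.

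Strong regions were also fewest on chromosome 13, but by less. Knockdown libraries had 8.32, 8.33 and 9.13 strong regions per Mb there and controls 13.4, 15.1 and 13.3, where the other autosomes had 17.0, 17.6 and 19.3 in knockdown libraries and 25.2, 27.5 and 24.8 in controls. The ratio of chromosome 13 to the other autosomes was 0.507, or −0.98 ± 0.10 on the log2 scale (SD, n = 6, exact sign-flip permutation p = 0.03125). Regions between both thresholds had a ratio of 0.470, so the shortfall was largest for weak regions and least for strong ones. The autosome next in line was chromosome 11 for weak regions, with 5.78 per Mb as a mean of 6 libraries against 3.96 on chromosome 13, and chromosome 18 for strong regions, with 17.5 against 11.2. Against chromosomes 4 and 18 alone, which are also poor in genes, the log2 ratio was −2.76 for weak and −0.77 for strong regions. These 2 differ in weak density, and chromosome 4 had the highest of the 22 autosomes. As means of 6 libraries it held 31.6 weak regions per Mb and chromosome 18 held 14.1, so the weak ratio leans on chromosome 4. Within 5 Mb bins that hold fewer than 30 protein-coding gene ends, it was −2.14 and −0.91. Listed peaks covered 0.982% ± 0.0344 of occupied sequence on chromosome 13 in knockdown libraries and 1.28% ± 0.0596 in controls, against 2.36% ± 0.0180 and 2.57% ± 0.0728 on the other autosomes (SD, n = 3 each).

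**Figure D1:**
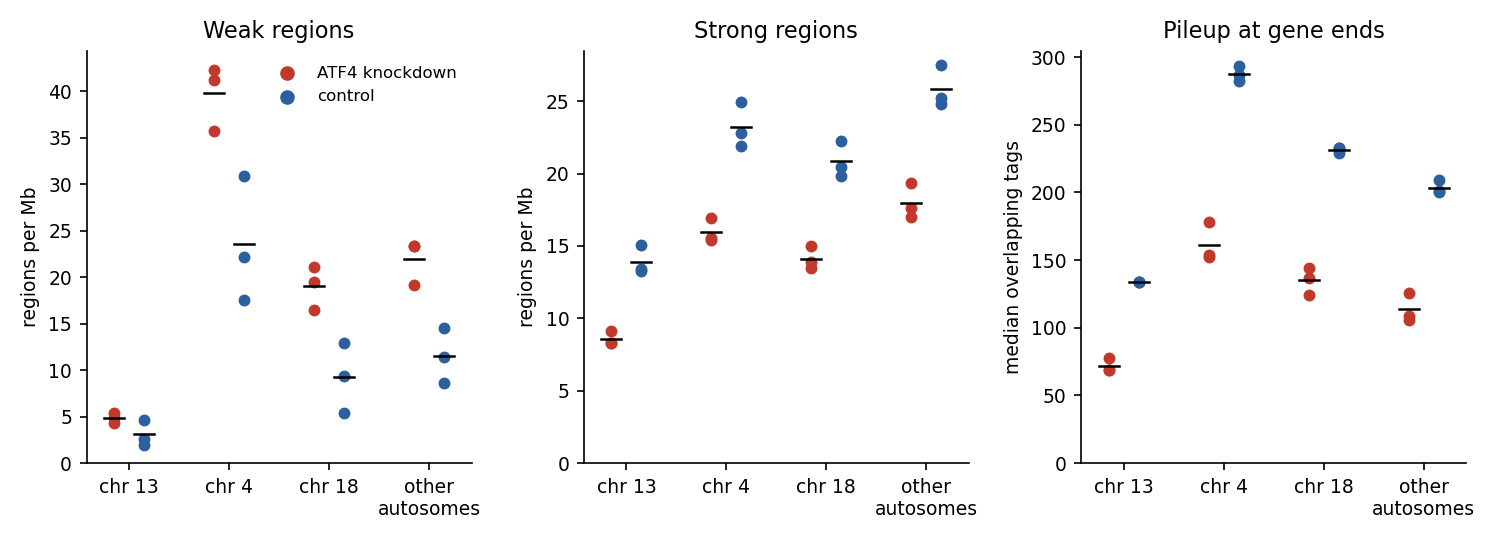
Weak regions per Mb, strong regions per Mb and median pileup at gene ends (tags) on chromosome 13, chromosomes 4 and 18 and the pooled other autosomes. Each point is a library, ATF4 knockdown left and control right, with a bar at the group mean. In all 3 panels the chromosome 13 points of each group lie below the points of the same group on the other chromosomes shown.

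The signal at gene ends was lower as well. The pileup, the number of tags that overlap a summit, was recovered from the deposited values, and its median was taken over regions that lie within 1 kb of either annotated end of a protein-coding gene and are listed in all 6 libraries. There were 205 such regions on chromosome 13 and 12752 on the other autosomes. Chromosome 13 had medians of 69, 69 and 78 tags in knockdown libraries and 134 in each control, where the other autosomes had 109, 106 and 126 in knockdown libraries and 200, 201 and 209 in controls. The ratio was 0.647, or −0.63 ± 0.04 on the log2 scale (SD, n = 6, exact sign-flip permutation p = 0.03125), and chromosome 13 ranked lowest of 22 autosomes in every library. By the caller's −log10 q at gene ends the ratio was 0.810, and the rank of chromosome 13 from the lowest ran from 1 to 8. As means of 6 libraries that −log10 q was lower on chromosome 19, at 55.7 against 58.6 on chromosome 13. The caller's fold enrichment at gene ends went the other way, 1.11 times that of the other autosomes (log2 0.15 ± 0.04, exact sign-flip permutation p = 0.03125). As means of 6 libraries the fold was higher still on chromosomes 18, 3 and 14. On chromosome 13 the fold was below the other autosomes when strong regions alone were counted (log2 −0.034, exact p = 0.15625) or annotated gene starts replaced both ends (−0.021, exact p = 0.28125). The fold divides the pileup by the local background, which was compared over all summits and not at gene ends alone. It was raised above the library-wide rate at 49.3% ± 0.946 of chromosome 13 summits in knockdown libraries and 53.6% ± 3.55 in controls, against 66.5% ± 2.93 and 68.4% ± 4.85 on the other autosomes (SD, n = 3 each). The difference was −16.0 percentage points (± 2.12 SD, n = 6, exact sign-flip permutation p = 0.03125).

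The median width of strong regions on chromosome 13 was 0.993 times that of the other autosomes (exact sign-flip permutation p = 0.625). Fewer regions lay in gene bodies away from gene ends, by 5.48 ± 0.75 percentage points, and more lay between genes, by 5.06 ± 1.91 points (SD, n = 6, exact sign-flip permutation p = 0.03125 for both). Chromosome 13 was not extreme in either. As means of 6 libraries, 52.7% of its regions lay between genes, against 60.9%, 54.9%, 54.2% and 53.9% on chromosomes 4, 8, 21 and 5. The gene-body share was lower on chromosomes 4 and 21 (34.5% and 35.6%, against 35.8%). Of the 338 protein-coding genes of chromosome 13, 202 (59.8%) had a region at either end that was strong in all 6 libraries, and 104 (30.8%) had none. On the other autosomes these shares were 63.0% and 21.0% of 18788 genes. Genes with any listed region at an end were fewer on chromosomes 21 and 11, at 60.5% and 60.8% as means of 6 libraries, against 67.4% on chromosome 13.

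Along the chromosome the shortfall was not even. In the 20 bins of 5 Mb, the mean weak density over 6 libraries ran from 1.27 per Mb at 35 to 40 Mb to 15.5 at 110 to 115 Mb. In 7 bins it was below 2.72 per Mb, the lowest of 537 bins on the other autosomes, and these were the 6 bins from 15 to 45 Mb and the bin from 55 to 60 Mb. Between 45 and 110 Mb the other bins held 3.23 to 4.97 weak regions per Mb, against a median of 13.3 on the other autosomes. The last bin, from 110 to 115 Mb, was the exception, with 19.7 ± 1.25 per Mb in knockdown libraries and 11.3 ± 2.86 in controls (SD, n = 3 each), and its densest Mb was the distal one, from 114 Mb, with a mean of 36.7 per Mb. Strong density was lowest at 55 to 60 Mb, 80 to 85 Mb and 60 to 65 Mb, with 4.41, 5.25 and 6.08 per Mb. It was highest at 110 to 115 Mb, 50 to 55 Mb and 45 to 50 Mb, with 23.9, 18.2 and 17.4 per Mb. In 15 of the 20 bins strong density lay below 14.8 per Mb, the lower quartile of bins on the other autosomes.

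**Figure D2:**
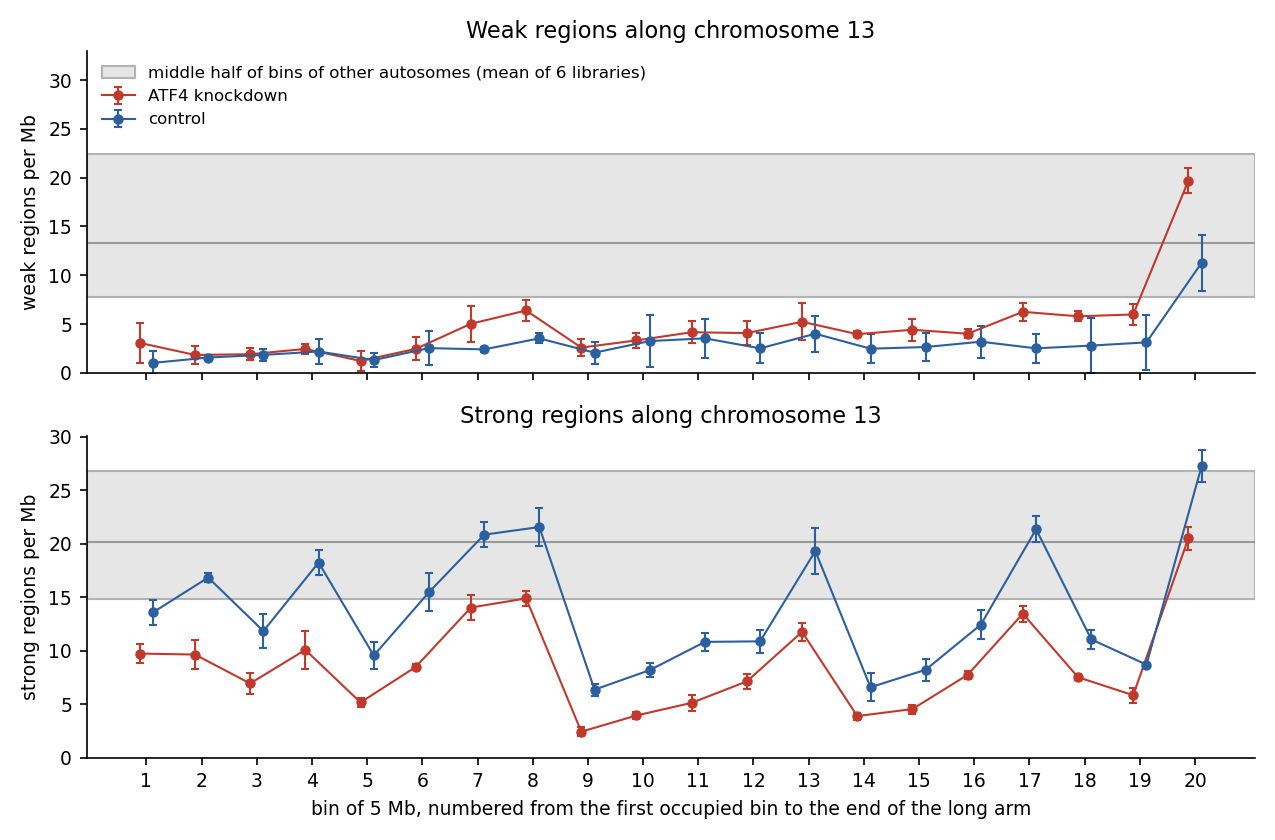
Weak (top) and strong (bottom) regions per Mb in the 20 bins of 5 Mb, numbered along the long arm so that bins 1 to 6 are 15 to 45 Mb and bin 20 is 110 to 115 Mb. Points are means of ATF4 knockdown and control libraries with SD (n = 3 each), and the band and line give the quartiles and median of bins on other autosomes. Weak density stays low in both groups up to bin 19 and reaches the band of the other autosomes in bin 20.

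The pileup at gene ends, though not that of all regions listed in all 6 libraries, divided the chromosome into stretches. These were chosen after the values were seen, so they carry no test. From 15 to 45 Mb the median of 78 gene-end regions was 45, 41.5 and 51 tags in knockdown libraries and 86, 84.5 and 85 in controls, which is 0.413, 0.392 and 0.405 of the other autosomes in knockdown libraries and 0.430, 0.420 and 0.407 in controls. From 45 to 110 Mb the median of 103 regions was 104, 106 and 111 tags in knockdown libraries and 203, 194 and 202 in controls, or 0.881 to 1.0 of the other autosomes in knockdown libraries and 0.965 to 1.02 in controls. From 110 to 115 Mb, 24 regions stood at 0.761 to 0.857 in knockdown libraries and 0.785 to 0.828 in controls. In every library the median from 15 to 45 Mb was below those of the other stretches. With regions up to 5 kb from a gene end the first stretch was at 0.523 and the second at 1.08, and with annotated gene starts at 0.380 and 0.906. Over all regions listed in all 6 libraries the pileup ratio was 0.776 for the chromosome and did not follow these stretches. By bin it was 1.23 from 15 to 20 Mb and 0.626 to 0.768 from 20 to 45 Mb. Beyond 45 Mb it ran from 0.473 at 55 to 60 Mb to 1.25 at 110 to 115 Mb.

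Weak density and gene-end signal were both lowest from 15 to 45 Mb, whereas strong density there was similar to that from 45 to 110 Mb. From 45 to 110 Mb, where gene ends were close to the level of the other autosomes, weak regions were at 0.207 to 0.227 of the other autosomes in knockdown libraries and 0.201 to 0.319 in controls, and strong regions at 0.424 to 0.465 in knockdown libraries and 0.490 to 0.507 in controls. From 15 to 45 Mb weak regions were at 0.0595, 0.105 and 0.121 in knockdown libraries and 0.114, 0.194 and 0.166 in controls, below the next stretch in every library. Strong regions there were at 0.427 to 0.467 in knockdown libraries and 0.543 to 0.563 in controls, in a stretch with 12.4 gene ends per Mb, against 5.18 from 45 to 110 Mb. From 110 to 115 Mb weak regions were at 0.848 to 0.963 of the other autosomes in knockdown libraries and 0.958 to 1.0 in controls, and strong regions at 1.11 to 1.19 in knockdown libraries and 1.03 to 1.09 in controls. Of 496 bins on other autosomes with at least 5 gene-end regions, 5 had a gene-end ratio under 0.5, where on chromosome 13 the bins from 20, 25, 35 and 40 Mb were at 0.379, 0.396, 0.385 and 0.440. Those 5 were 1 bin each on chromosomes 8, 11 and 15 and 2 neighbours on chromosome 1.

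Neighbouring genes near 45 Mb differed several-fold. Of the 78 gene-end regions below 45 Mb, 77 were under the median of the other autosomes, and over all 205 the count was 148 (72.2%). The exception was the region shared by ZMYM5 and ZMYM2, a zinc finger gene pair, at chr13:19862832-19865038 and 1.04 times that median. NUFIP1, a receptor for the breakdown of ribosomes, had 54, 44 and 55 tags in knockdown libraries and 95, 114 and 87 in controls, 0.468 times the median of the other autosomes. GTF2F2, a subunit of the general transcription factor TFIIF, follows with 15, 22 and 25 tags in knockdown libraries and 50, 41 and 48 in controls, 0.205 times that median. TPT1, the translationally controlled tumour protein, follows at chr13:45340474-45341902 and had 184, 247 and 221 tags in knockdown libraries and 367, 318 and 387 in controls, 1.84 times that median. The next gene ends were again low at SLC25A30, a mitochondrial carrier, at 0.215, and higher at COG3, a subunit of a Golgi tethering complex, at 1.08. Single regions ranged widely on both sides of 45 Mb, from 0.123 near RGCC at 41 Mb and 0.0733 near F10 at 113 Mb to 2.54 at CAB39L at 49 Mb.

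**Figure D3:**
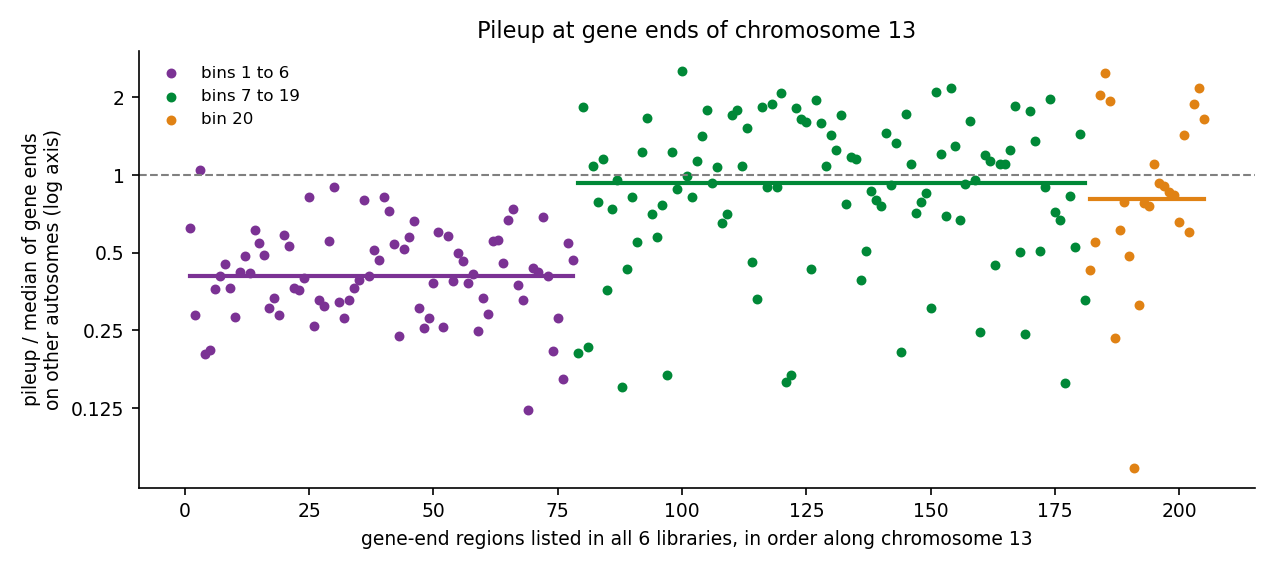
Pileup of the 205 gene-end regions of chromosome 13, in order along the chromosome, each divided by the median of gene ends on the other autosomes and averaged over 6 libraries (log axis). Colours give bins 1 to 6 (15 to 45 Mb), bins 7 to 19 (45 to 110 Mb) and bin 20 (110 to 115 Mb), lines their medians, and the dashed line the level of the other autosomes. Of the 78 points in bins 1 to 6, 77 lie below the dashed line, while points of the later bins lie on both sides of it.

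The gene lists hold low gene ends on both sides of 45 Mb, and the lowest ratios of any list member were at RUBCNL (0.151) and PCDH17 (0.167), both beyond it. The 13q14 list had 24 genes, and 18 of them had a region strong in all 6 libraries at a gene end, beside 59.8% of all protein-coding genes of the chromosome. Their ratios to the other autosomes ran from 0.576 at ITM2B, a membrane protein gene, to 2.54 at CAB39L and SETDB2. RB1, the retinoblastoma tumour suppressor, had 99, 87 and 88 tags in knockdown libraries and 160, 135 and 150 in controls, a ratio of 0.769. All of these regions lie beyond 45 Mb. LPAR6, RCBTB2, CYSLTR2, KCNRG and DLEU7 had no region at a gene end, and ARL11 was listed in 1 control library alone.

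Of the 19 genes of amino acid supply, protein folding and stress, all had a region present in the 6 libraries and 17 had one that was strong in each. Over all protein-coding genes of the chromosome these shares were 64.5% and 59.8%. The 8 members below 45 Mb had ratios of 0.209 to 0.803, and the 11 beyond it 0.215 to 2.09. SLC7A1, a transporter of cationic amino acids and a known ATF4 target, had 90, 86 and 96 tags in knockdown libraries and 150, 184 and 157 in controls. POMP, the proteasome maturation protein, had 23, 42 and 28 tags in knockdown libraries and 71, 72 and 89 in controls. UFM1, a ubiquitin-like modifier of the endoplasmic reticulum stress response, had 43, 47 and 45 tags in knockdown libraries and 115, 108 and 99 in controls. In all 3 genes the knockdown values lay below the control values, as the medians of the other autosomes also did.

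The cell cycle and DNA repair list had 14 of 15 genes with a region strong in all 6 libraries, 7 below 45 Mb at ratios of 0.283 to 0.666 and 7 beyond it at 0.780 to 2.04. For this list and those that follow, the shares over all protein-coding genes of the chromosome were 59.8% with such a region and 30.8% with none. LATS2, a Hippo pathway kinase, stood lowest with 25, 30 and 31 tags in knockdown libraries and 66, 61 and 64 in controls. In the list of RNA decay, transcription and growth control 13 of 16 genes had such a region. DIS3, the exosome nuclease that is recurrently mutated in myeloma, had 165, 176 and 194 tags in knockdown libraries and 332, 349 and 311 in controls, a ratio of 1.60. FOXO1, a transcription factor of B cells, had 87, 38 and 72 tags in knockdown libraries and 105, 98 and 123 in controls, a ratio of 0.555. In the lymphoid and bone list 5 of 13 genes had a strong region in all libraries, among them TNFSF13B, which encodes the B cell survival factor BAFF, at 0.527, and 6 had none, among them FLT3, GPR183 and TNFRSF19. In the neural and tissue-restricted list 12 of 28 had one and 13 had none. Of the 6 entries for microRNA hosts, DLEU2 and MIR17HG, the host of the miR-17-92 cluster, had one, at 1.3 and 1.24, and the 4 hairpin genes had no region at their ends.

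Of the chromosome 13 regions, 1043 (35.1%) were found in all 6 libraries, beside 28.7% of all 216003 regions. The share was higher on chromosomes 11, 19, 17, 14 and 22, at 42.2%, 36.8%, 36.6%, 35.6% and 35.5%. Ranked by the lowest −log10 q of any library, the strongest was the shared region of CAB39L, a scaffold of the LKB1 kinase complex, and SETDB2, a histone methyltransferase, at chr13:49443683-49445324. It had 277, 288 and 370 tags in knockdown libraries and 410, 497 and 530 in controls. The next was at DNAJC3, a co-chaperone of the endoplasmic reticulum that restrains the kinase PERK, at chr13:95676355-95677787, with 266, 219 and 235 tags in knockdown libraries and 438, 450 and 368 in controls. The ranks after these were SPRYD7, the shared region of MZT1 and BORA, 2 genes of the mitotic spindle, and TMTC4, followed by a region inside CARS2 and 5.90 kb from ING1 and a region inside KLF5. SUGT1, a co-chaperone of HSP90, DIAPH3, an actin-nucleating formin, and GPC5, a glypican, completed the 10. None of the 10 lies below 45 Mb. These pileups are not scaled for depth, which was lower in every knockdown library.

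After ATF4 knockdown, chromosome 13 had fewer strong regions per Mb in each library than in any control, and a lower density of all regions relative to the other autosomes. Strong density was 8.60 ± 0.46 per Mb in knockdown libraries and 13.9 ± 1.0 in controls (SD, n = 3 each), a difference of −5.31 that 3 libraries against 3 cannot place below the exact permutation p of 0.1. Strong density was lower on the other autosomes too, at 18 ± 1.2 per Mb in knockdown libraries and 25.8 ± 1.47 in controls. Relative to the other autosomes it was 0.489, 0.473 and 0.472 in knockdown libraries and 0.531, 0.547 and 0.535 in controls, without overlap (log2 difference −0.17, exact permutation p = 0.1). Lists cut to an equal length of 135070 regions cannot test that difference, which stayed at −0.17. The cut keeps the highest-ranked regions and so removes no strong region. Within 3 pairs of same-numbered libraries the smallest exact p is 0.25. Among the 22 autosomes chromosome 13 had the most negative change in strong density, −0.69 on the log2 scale, followed by chromosome 14 at −0.58. It was not extreme in signal per region. From the most negative, its change ranked 5 for pileup at gene ends (−0.90) and 16 for pileup of all regions listed in all 6 libraries (−1.02). For −log10 q at gene ends it ranked 21 (−0.95).

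Weak density was higher in knockdown libraries, 4.82 ± 0.56 per Mb, than in controls, 3.09 ± 1.40, and the groups overlapped (difference 1.73, exact permutation p = 0.2). The other autosomes had 21.9 ± 2.45 weak regions per Mb in knockdown libraries and 11.5 ± 2.95 in controls. The log2 change of 0.64 on chromosome 13 was the smallest of 22 autosomes, with chromosome 4 next at 0.76, but the ratio to the other autosomes overlapped between the groups (log2 difference −0.23, exact permutation p = 0.2). Counting all regions, chromosome 13 had 21.9, 24.2 and 23.5 per Mb in knockdown libraries and 25.6, 29.9 and 23.6 in controls. Its ratio to the other autosomes was 0.344, 0.378 and 0.383 in knockdown libraries and 0.459, 0.50 and 0.470 in controls, without overlap (log2 difference −0.37, exact permutation p = 0.1, 0.211 after adjustment over 19 measures). The gene-end pileup ratio overlapped, at 0.633, 0.651 and 0.619 in knockdown libraries and 0.670, 0.667 and 0.641 in controls (log2 difference −0.06, exact permutation p = 0.2). Depth was lower in every knockdown library than in every control, and its part in these differences was not tested.

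**Figure D4:**
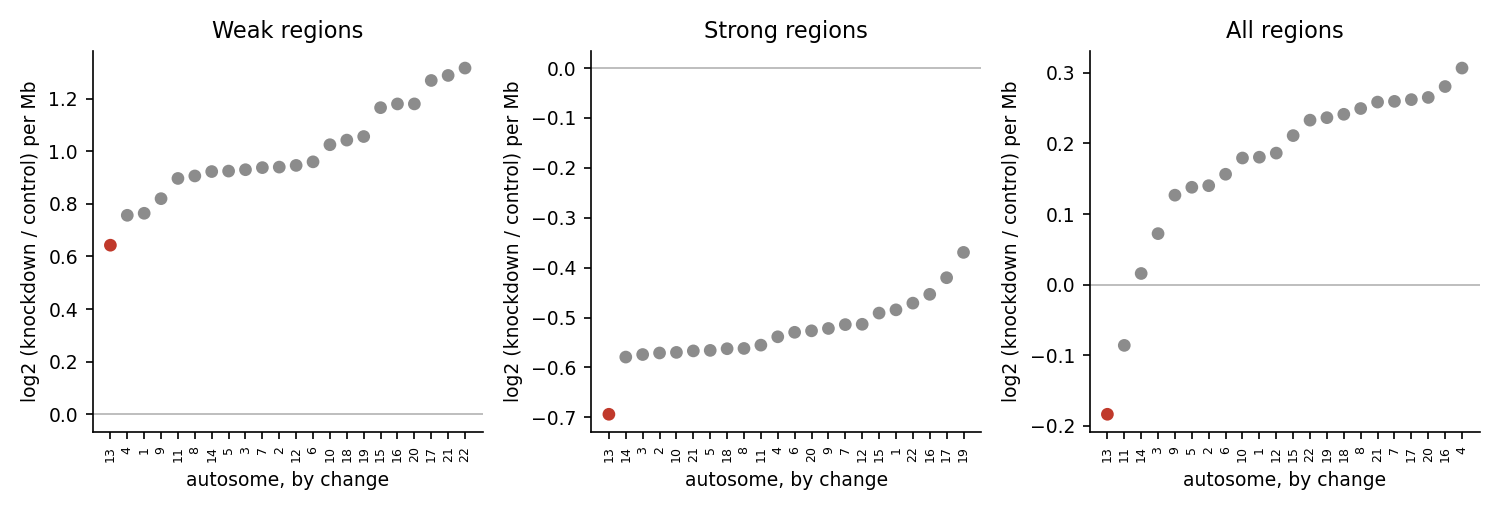
Log2 of knockdown over control density per Mb for each of the 22 autosomes, in order of change, for weak, strong and all regions, from means of 3 libraries per group. Chromosome 13 (red) is lowest in each panel, at 0.64 for weak, −0.69 for strong and −0.18 for all regions.

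Regions found in all 3 controls and in no knockdown list numbered 92 on chromosome 13, 3.10% of its regions, where 1.5% of the 216003 regions of all chromosomes were of this kind, and this was the highest share of 23 chromosomes. Chromosomes 11 and 14 came next, at 2.52% and 2.06%. The share also depends on how many other regions are counted. Regions neither group-specific nor found in all 6 libraries made up 61.7% on chromosome 13, against 69.9% on the other autosomes. Of the 92, 27 lay from 15 to 45 Mb (4.33% of the regions there), 61 from 45 to 110 Mb (3.05%) and 4 from 110 to 115 Mb (1.16%). They were small, with 11 to 73 tags in controls (median 19), and 54 lay between genes, 35 in gene bodies and 3 at gene ends. With presence set at a −log10 q of 10 or more, 10 remained on chromosome 13, or 0.690% of its regions against 0.399% of all. Leaving out knockdown replicate 2, knockdown replicate 3 or control replicate 3, which also loosens the rule, gave 146, 152 and 165 on chromosome 13 (5.15%, 5.38% and 5.69%, against 2.56%, 2.79% and 2.85% of all).

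The strongest of these regions lay 59.2 kb from RAP2A, a small GTPase gene, at chr13:97528318-97529017, with 37, 39 and 42 tags in controls and no listed peak in knockdown libraries. The next was 52.9 kb from RBM26, an RNA-binding protein gene, at chr13:79258528-79258964, with 41, 36 and 36 tags in controls. The third was inside DNAJC3, 44.9 kb from its end, at chr13:95749217-95750128, with 38, 28 and 38 tags in controls. The others of the first 8 were near PCDH9, a protocadherin gene, near LOC107983958, inside INTS6 and SERPINE3, 894 kb from KLHL1 and 6.18 kb from RNF17. An unlisted region can still hold tags below the caller's threshold, so no fold is given. The reverse class had 1 region on chromosome 13, 0.0337% of its regions beside 0.102% of all. It lay 424 kb from SLITRK6, at chr13:85367879-85368401, with 12, 15 and 15 tags in knockdown libraries and no listed peak in controls. When any listed peak counted as presence the reverse class had 7 (0.171%, beside 0.355% of all). Leaving out knockdown replicates 1, 2 or 3 gave 4, 7 and 7 (0.140%, 0.247% and 0.248%, beside 0.520%, 0.572% and 0.504% of all). Leaving out control replicates 1, 2 or 3 gave 2, 3 and 1 (0.0703%, 0.110% and 0.0345%, beside 0.181%, 0.228% and 0.161% of all).

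Strong regions per bin, scaled to the library total and fitted with limma over all 589 bins, were lower in knockdown libraries in 11 of the 20 chromosome 13 bins and higher in 1. Over all bins 22.4% were called lower and 14.6% higher. The 5 bins from 20 to 45 Mb were all lower, by −0.24 to −0.34 on the log2 scale. Of these, the call at 25 Mb was lost without knockdown replicate 1 or control replicate 2 and the call at 35 Mb without control replicate 1 or 2 (limma adjusted p up to 0.180 and 0.0982). The largest difference was at 55 to 60 Mb, with 2.44 ± 0.44 strong regions per Mb in knockdown libraries and 6.37 ± 0.56 in controls (SD, n = 3 each), a scaled log2 difference of −0.82 ± 0.14 (SE, limma adjusted p = 2.95e-07). At 65 to 70 Mb it was −0.54 ± 0.09 (limma adjusted p = 2.1e-07) and at 60 to 65 Mb −0.51 ± 0.11 (limma adjusted p = 5.12e-05). The bin from 110 to 115 Mb was higher by 0.12 ± 0.04 (limma adjusted p = 0.0196), but the call was lost without knockdown replicate 2, control replicate 1 or control replicate 2 (limma adjusted p = 0.145, 0.126 and 0.0711). Without scaling it was lower by −0.41, as were all 20 bins and 99.8% of all bins. The calls at 75, 85 and 95 Mb were also lost without 1 library or another, and those at 20, 30, 40, 55, 60 and 65 Mb were made in each such fit. Leaving out control replicate 2 brought the calls to these 6 (13.1% of all bins were then lower), and no other library left fewer than 9. Weak regions had no bin called on chromosome 13 by limma, and none at an unadjusted p under 0.05, where 0.34% of all bins were called lower and 1.87% higher. Without scaling, 4 chromosome 13 bins were higher, beside 74.5% of all bins.

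**Figure D5:**
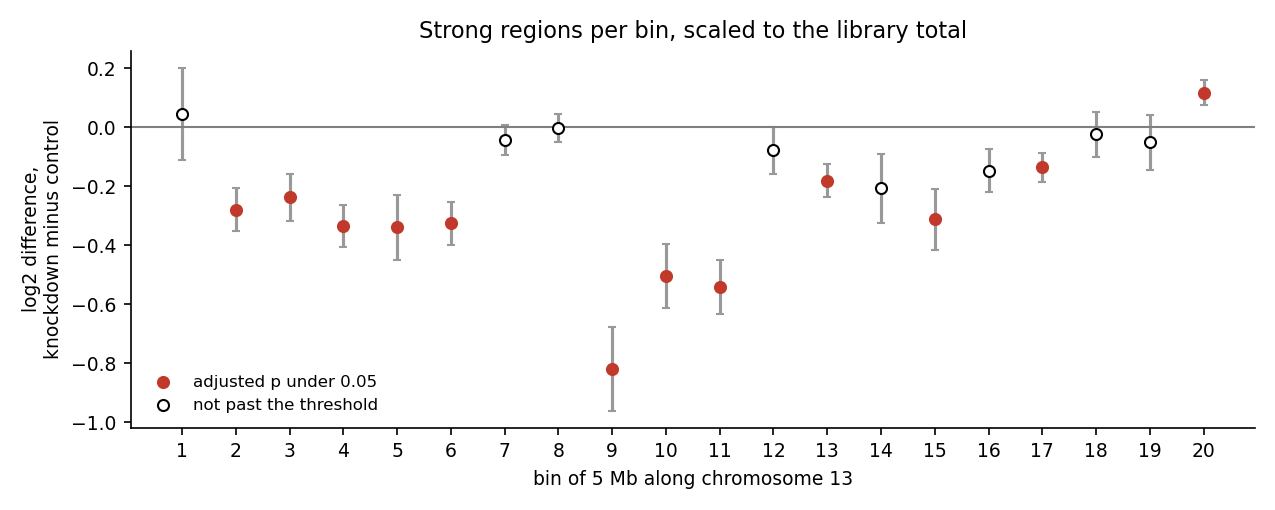
Scaled log2 difference in strong regions, knockdown minus control, for the 20 bins of 5 Mb along chromosome 13, with standard errors from limma. Filled points pass an adjusted p of 0.05. Of the filled points, 11 lie below 0, and that of bin 20, from 110 to 115 Mb, lies above it at 0.12.

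Per gene, the DNA covered by peaks within 10 kb of either gene end was compared after scaling to the library total. Of the 338 protein-coding genes of chromosome 13, 286 were covered in at least 3 libraries and entered the limma fit. None passed an adjusted p of 0.05 (0% of 18606 genes lower and 0% higher). At an unadjusted p under 0.05, 43 were lower and 4 higher in knockdown libraries, where 9.08% of all genes tested were lower and 4.89% higher. The difference was negative in 202 of the 286, with a median of −0.08, beside −0.02 over all genes. When only peaks with a −log10 q of 5 or more were counted, 5 genes were lower (1.87%, beside 3.17% of all) and 71 higher (26.5%, beside 30.7%). With 50 kb windows 18 were lower (5.45%, beside 1.95% of all) and 1 higher (0.303%, beside 2.17%). Without scaling 10 were lower (3.5%, beside 3.49% of all).

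The smallest p belonged to SERPINE3, a serpin gene, with 1396 ± 122 covered bp in knockdown libraries and 2405 ± 56.4 in controls (SD, n = 3 each, scaled), a log2 difference of −0.71 ± 0.10 (SE, limma adjusted p = 0.102). A control-only region lies 4.94 kb from its end, inside the window compared, so its bases are part of this same difference. GTF2F2, at 45 Mb, had 1108 ± 63.3 bp in knockdown libraries and 2235 ± 357 in controls (log2 difference −0.89 ± 0.13, limma adjusted p = 0.102). DZIP1, a gene of the primary cilium, ALOX5AP, which presents arachidonic acid to 5-lipoxygenase, and SMAD9, a BMP effector, followed with log2 differences of −0.61, −0.79 and −0.44 and limma adjusted p of 0.108, 0.144 and 0.146. In the other direction the neighbours ING1 and CARS2 near 110 Mb had 0.37 and 0.52 (limma adjusted p = 0.108 for both), TEX29, a testis-expressed gene, 1.57 (adjusted p = 0.139), POLR1D, a subunit of RNA polymerases I and III, 0.24 (adjusted p = 0.341) and ALG11, a mannosyltransferase of N-glycan synthesis, 0.33 (adjusted p = 0.402). In knockdown libraries TEX29 had 611, 778 and 736 scaled bp, against 0, 210 and 149 in controls.

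Among the gene lists, the 13q14 genes had 20 tested, 14 with a negative difference and a median of −0.07, and none passed an unadjusted p of 0.05. Cell cycle and repair genes had 15 tested, 11 negative, a median of −0.04, and 3 lower and 1 higher at an unadjusted p under 0.05. Genes of RNA decay, transcription and growth control had 14 tested, 9 negative, a median of −0.08, and 3 lower and 1 higher. Genes of amino acid supply, folding and stress had 19 tested, 13 negative, a median of −0.09, and 3 lower and none higher. The lymphoid and bone list had 10 tested, 5 negative and a median of −0.02, and the neural list 24 tested, 16 negative and a median of −0.05, with 1 and 2 members lower at an unadjusted p under 0.05. The list medians ran from −0.09 to −0.02, beside −0.08 for all 286 genes tested on the chromosome. Of those 286 genes, 202 had a negative difference, and 43 were lower and 4 higher at an unadjusted limma p under 0.05. Over all 18606 genes tested, 9.08% were lower and 4.89% higher at that threshold. No list was tested against these shares.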

How the data were processed

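ATAC-seq peak lists of 6 KMS-11 libraries were used, 3 ATF4 knockdown and 3 control. Each library has its own list. Per the submitters' processing notes, the caller was MACS2 and the build hg38. Its version and settings, the aligner and read filters were not given in the sources used here. The deposited lists give a score, a fold enrichment (pileup over local background, each plus 1), a −log10 p and a −log10 q for each summit. The deposited −log10 q ranked and classed regions, the deposited fold and −log10 p gave the pileup and local background (the whole tag number whose Poisson p matched within 0.01, found for 100% of summits), and the deposited score was not used further. The caller's values move with depth, which differed between groups, so densities were also compared as ratios to other autosomes, while pileups of single regions are not scaled.

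Overlapping peaks were merged per library, and over libraries at a −log10 q of 2. Regions were compared with RefSeq genes (GRCh38.p14), whose table has no strand. Libraries were compared by exact permutation tests, genes and bins by limma 3.58.1 in R 4.3.3 (trend, robust, Benjamini-Hochberg) on log2(covered bp + 200) and log2(regions + 1), scaled to the library total, which understates changes of low values. The fits were tested on simulated data. Python 3.11.15 and scipy 1.17.1 were used. Sequences other than chromosomes 1 to 22 and X (6 to 16 summits per list) were left out. No list pair shared more than 0.30% of its peaks exactly.

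Members, lists and tests were chosen with earlier results of these data known. Named items were list members, the 10 strongest shared and up to 8 strongest group-specific regions, 5 genes per direction by p, and the 3 highest and lowest bins. NUFIP1, RGCC, F10 and the shared ZMYM5 region were named after their values were seen. Not every list member is named.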

Additional observations from a re-analysis of the deposited data

How the results depend on the processing

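Leaving out each library in turn kept the direction of the comparisons with other autosomes, with log2 ratios of −2.16 to −2.03 for weak density, −1.0 to −0.96 for strong density, 0.14 to 0.16 for fold at gene ends and −0.64 to −0.60 for pileup, and −16.6 to −15.4 points for raised background. With 5 libraries no p below 0.0625 is possible. Knockdown minus control ran from 1.19 to 2.53 for weak and −5.63 to −4.73 for strong density, from −0.31 to −0.06 and −0.19 to −0.16 for their log2 ratios to other autosomes, from 121 to 165 control-only and 1 to 7 knockdown-only regions, from 0 to 1 weak and 6 to 12 strong bins, and stayed at 0 genes. Gene-end pileup ran from 0.41 to 0.42 of the other autosomes at 15 to 45 Mb and from 0.96 to 0.99 at 45 to 110 Mb.

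Fold at gene ends reversed with strong regions only (−0.034) and annotated starts (−0.021), POLR1D with 50 kb windows (−0.066) and the bin from 110 Mb without scaling (−0.41). Counts moved to 10 control-only and 0 knockdown-only regions at a −log10 q of 10, to 7 knockdown-only regions with any listed peak, to 19 genes with 50 kb windows, 10 without scaling and 76 at a −log10 q of 5, and to 4 weak and 20 strong bins without scaling. The cause was not tested.

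Libraries of the same replicate number did not deviate together in covered length (r across 18606 genes, 0.016, 0.001 and 0.025). These values give no sign of pairing, but they cannot show whether same-numbered libraries were handled together. With the replicate number as a block, 0 genes, 0 weak bins and 12 strong bins were called, and the density differences of 1.73, −5.31, −0.23 and −0.17 had an exact p of 0.25, the smallest 3 pairs allow.

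The alternative of annotated starts and the limits of the stretches were chosen after seeing the data. A region listed in controls alone can hold tags under the threshold elsewhere.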
